A study of Oryza sativa with 25 samples.

Results

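In rice callus moved to regeneration medium, 200 of 57194 probe sets were collected whose mean level was higher at both 6 and 8 days than in growing callus, at 2 days and at 4 days. The score that chose them was the lower of the 6 and 8 day means minus the highest of the 3 earlier means, each a mean of log2(intensity + 0.0274). The 200 highest scores among probe sets with an 8 day mean intensity of at least 0.5 were kept, and probe sets of CAB2R, PETE, PCF7 and OsrbcS were left out. All callus values of the 200 therefore took part in the choice, and they are given below as a description without a test. Root, shoot and young leaf took no part in it, and those 3 organs are compared with tests. The probe annotation gave 1 gene to 163 of the 200, several genes to 2 and none to 35, which comes to 144 genes, 29 of them with a name other than a locus number. Of the 200 probe set identifiers, 49 end in _s_at or _x_at and can detect related transcripts.

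The 25 arrays, Affymetrix Rice Genome Arrays hybridized with labelled copies of total RNA, fall into 8 groups. Growing callus and callus kept 2, 4, 6 or 8 days on regeneration medium have 3 arrays each, all from seed callus raised for 3 weeks at 30 °C. The organs are whole root at the stage of the growing 4th leaf (3 arrays), 4-week-old shoot (3 arrays) and the blade of the 4th leaf (4 arrays, called young leaf). Root and leaf plants grew in a greenhouse and shoot plants in a growth chamber at 30 °C, so for shoot the organ and the growth place cannot be told apart. The labels name no cultivar and no treatment besides the medium, and they call the arrays biological replicates without saying which plants or callus batches were pooled. Replicate 2 of the 3 earlier callus groups is marked in the labels as having received too much poly(A) spike-in RNA.

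A level below is the deposited intensity, in which the 75th percentile of each array is 1 and the median of all values is 0.274. The number of arrays limits the precision, not a read depth. Within groups the correlation of log2 levels across probe sets was at least 0.973, the lowest being that of 8 day replicates 1 and 2. In the probe set of each with the highest leaf level, the leaf genes OsrbcS, CAB2R and PETE stood at 88.0, 134 and 145 in young leaf. In root these read 0.448, 0.232 and 0.249. The other OsrbcS probe sets were weaker, at 2.72, 8.15 and 0.148 in young leaf and 0.862, 0.0905 and 0.135 in root. The last of them thus barely differed. The other CAB2R probe set stood at 95.5 in young leaf and 0.217 in root. OSH1, a homeobox gene of the shoot meristem, stood at 6.69 in shoot, 0.127 in young leaf and 0.170 in root. OSH71 of the same marker list was also highest in shoot (5.94) and low in young leaf (0.156), but reached 1.70 in root. The silicon channel gene NIP2-1, a gene of the aquaporin list, stood at 149 in root, 3.35 in shoot and 1.77 in young leaf. The root symbols among the markers matched no probe set. In callus and organs alike, fewer cells of a type and less RNA per cell cannot be told apart.

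Callus is a mass of dividing cells that can be led to form shoots when the hormones of its medium are changed. Greening cells build chloroplasts, whose light-harvesting proteins and carbon-fixing enzymes are encoded largely in the nucleus, while roots take up water through aquaporins, channel proteins of the plasma membrane (PIP) and of the vacuole membrane (TIP). Dehydrins and their relatives accumulate in seeds and in drying tissue under abscisic acid, and nicotianamine synthases make a chelator that carries iron and other metals.

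Before 6 days most of the 200 were near or under the level of a typical probe set. The median over members of the group mean was 0.226 in growing callus, 0.272 at 2 days and 0.252 at 4 days, then 1.48 at 6 days and 1.76 at 8 days. For 87 members every earlier mean lay below 0.274, and for 15 every earlier mean was at least 1. The 6 arrays of 6 and 8 days all lay above the 9 earlier arrays for 151 members, a separation found for 2.07% of the 37212 probe sets tested, but one that the score selects for. The difference between the later and the earlier callus, the score itself, ran from 1.27 to 4.50 on the log2 scale with a median of 1.65. Just inside the list stood LOC9266984 with a score of 1.27, and just outside it LOC4336145 with 1.26. At the other threshold LOC4339708 had an 8 day mean of 0.519, while LOC4337756 was kept out with 0.494.

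The label of a rise from 6 days on held for most members and not for all. In 166 members the 2 and 4 day means stayed within 2-fold of growing callus. In 23 the 2 or 4 day mean already stood at least 2-fold above it, and in 12 at least 2-fold below. RAB16D had the largest early step, from 0.309 in growing callus to 1.89 at 2 days and 2.41 at 4 days. LOC4339527 was next, at 1.55 in growing callus, 4.76 at 2 days and 6.26 at 4 days, and it went on to 18.6 at 6 days and 52.5 at 8 days. The 8 day mean was above the 6 day mean for 166 members, by at least 2-fold for 19, and the median log2 difference was 0.32. That count moved to 135 without 6 day replicate 3 and to 194 without 6 day replicate 2.

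**Figure D1:**
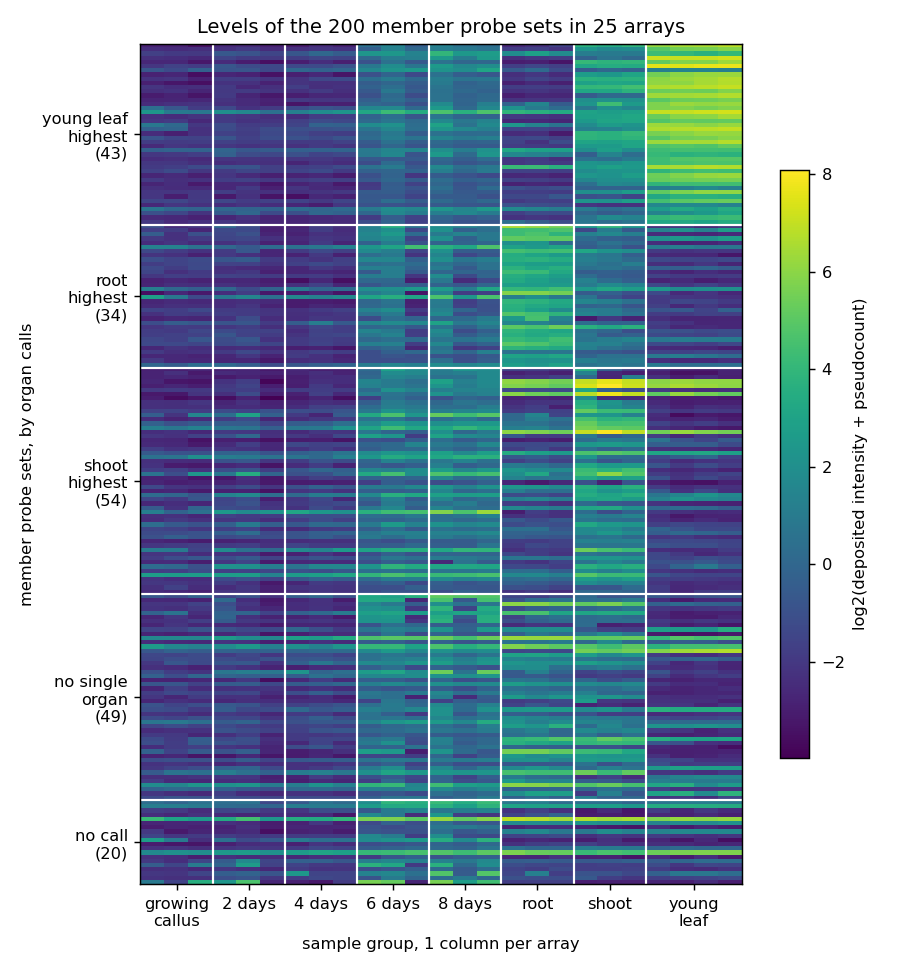
Each row is 1 of the 200 member probe sets and each column 1 of the 25 arrays, grouped by sample, with colour giving log2(deposited intensity + pseudocount). Rows are ordered by the organ comparisons, and the number of members in each class is in parentheses. The first 9 columns are mostly dark, the 6 columns of 6 and 8 days are lighter, and the organ columns differ sharply between the classes.

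The members were called different between organs more often than all probe sets tested, in both directions of each comparison. The 2 sets are not matched for level, however. Members had to reach an 8 day mean of 0.5, as 19710 of the 57194 probe sets did, while the probe sets tested had no such minimum. How much of the excess goes with level was not tested. Every member passed the filter on low values, which counts the late callus arrays that the rule chose to be high, so this pass was nearly built in. With only the organ arrays used for it, 185 passed. Shoot was then above young leaf for 103 members, and the shoot class described below came to 50. In all, 34138 probe sets passed that filter, and the shares of them with these calls were not computed. These counts therefore have no background beside them. The counts that follow use the filter over all arrays. Young leaf was called higher than root for 49 members (24.5%) and lower for 85 (42.5%), against 15.5% and 16.6% of all probe sets tested. Shoot was higher than root for 88 (44%) and lower for 43 (21.5%), against 15.5% and 13.5%. Shoot was higher than young leaf for 109 (54.5%) and lower for 53 (26.5%), against 16.5% and 15%. A call is a Benjamini-Hochberg adjusted p under 0.05 from limma, fitted over all arrays, together with at least a 2-fold difference. The median log2 difference over members was -0.56 for young leaf minus root, 0.71 for shoot minus root and 1.61 for shoot minus young leaf, where all probe sets tested had -0.02, 0.05 and -0.05. These comparisons share arrays in pairs, so their counts are not separate pieces of evidence. The highest organ mean was in root for 34.5% of members and 43.8% of all probe sets tested. It was in young leaf for 27.5% and 30.8%, and in shoot for 38% and 25.4%. By this measure only shoot had a larger share among members than among all.

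Read together, the calls divide the members into classes. In 43 members, from 32 genes, young leaf was above both other organs (21.5%, with 9.94% of all probe sets tested). In 34, from 28 genes, root was above both (17%, with 8.17%). In 54, from 36 genes, shoot was above both (27%, with 8.01%). Another 49 (24.5%, with 22.5%) had calls that set no single organ on top, and 20 (10%, with 51.4%) had no call between organs. The classes compare organ levels only, although the callus arrays share in the normalization, the filter and the estimate of spread. With the organ arrays alone in the fit, the leaf, root and shoot classes came to 43, 37 and 53.

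**Figure D2:**
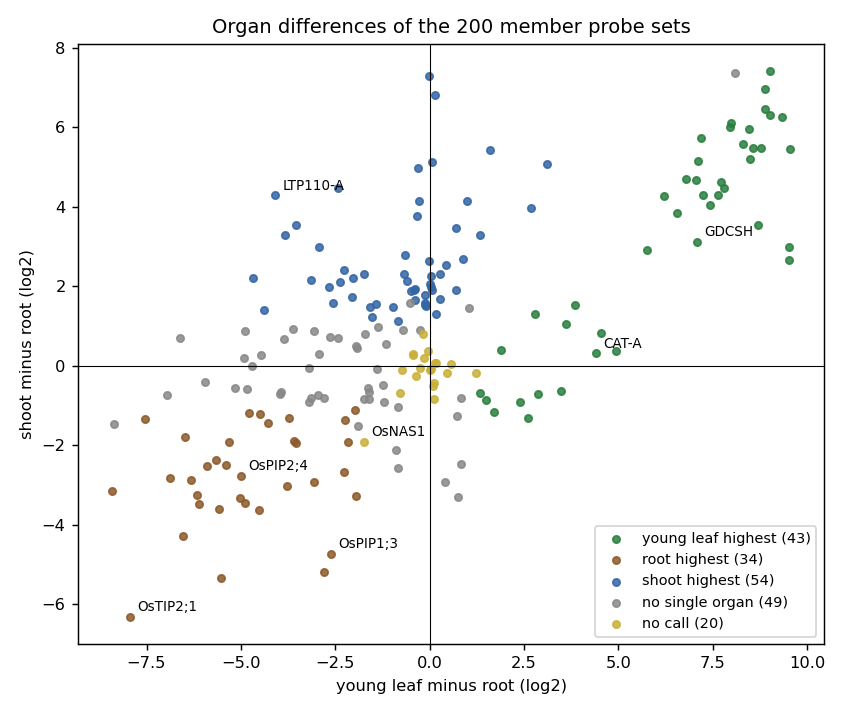
Each point is 1 member probe set, placed by its young leaf minus root difference on the horizontal axis and its shoot minus root difference on the vertical axis (both log2), and coloured by class. The young leaf class lies to the right and mostly high up, the root class lies at the lower left, and the shoot class spreads along the upper part of the vertical axis.

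The root class held 4 aquaporin genes that were low in early callus: OsPIP1;3, OsPIP2;2, OsPIP2;4 and OsTIP2;1. In root they stood at 22.2 ± 3.43, 33.1 ± 2.19, 12.1 ± 1.37 and 53.5 ± 6.85 (SD, n = 3), and all 4 were called lower in shoot and in young leaf. OsTIP2;1, a vacuolar channel, showed the steepest drop, with young leaf minus root at -7.95 (SE 0.751) and shoot minus root at -6.31 (SE 0.803) on the log2 scale (limma adjusted p = 2.52e-09 and 4.68e-07). Its 6 day arrays read 1.94, 2.86 and 0.0759, its 8 day arrays 2.54, 0.25 and 0.275, and its earlier callus arrays 0.0634 to 0.263. So 6 day replicate 3 lay within the range of earlier callus, and at 8 days replicate 2 lay just below and replicate 3 just above the highest earlier array. Even its highest callus array was far below the lowest root array, 45.6.

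OsPIP1;3 and OsPIP2;2, plasma membrane channels, followed the same order of arrays. OsPIP1;3 read 2.53, 4.19 and 0.352 at 6 days and 4.22, 0.792 and 1.27 at 8 days, with earlier arrays at 0.107 to 0.391. OsPIP2;2 read 2.72, 3.55 and 0.305 and then 4.01, 0.804 and 1.76, with earlier arrays at 0.145 to 0.345. In both genes 6 day replicate 3 fell among the earlier arrays and 8 day replicate 1 was the highest of its group. Both were called higher in young leaf than in shoot, with shoot minus young leaf at -2.11 (SE 0.654, limma adjusted p = 0.00814) for OsPIP1;3 and -2.39 (SE 0.536, adjusted p = 0.000506) for OsPIP2;2. For OsPIP1;3 that call was lost without shoot replicate 1, where the log2 difference became -1.60. OsPIP2;4 read 3.03, 2.88 and 0.787 and then 4.00, 1.60 and 2.16, its earlier arrays reached 0.701, and its leaf level was 0.351 ± 0.0268 (SD, n = 4). Its shoot minus young leaf difference ran the other way, at 2.23 (SE 0.387, limma adjusted p = 2.71e-05) on the log2 scale.

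A further pair of aquaporin genes was already abundant in early callus and outside the root class. OsPIP1;2 stood at 3.04 ± 0.118 in growing callus, 8.15 ± 2.45 at 4 days and 29.4 ± 2.97 at 6 days (SD, n = 3), and at 75.2 in root, 35.7 in shoot and 24.1 in young leaf. OsTIP1;1 had the highest 8 day level of all members, 55.9 ± 18.9, after 10.7 in growing callus, and none of its organ comparisons was called for that probe set (root 104, shoot 91.5, young leaf 65.0). Its other member probe set was called lower in young leaf (19.8) than in root (43.8), with a log2 difference of -1.24 (SE 0.368, limma adjusted p = 0.00566). Of 24 aquaporin genes tested, these 6 are members, where 200 of the 37212 probe sets tested are. Over the whole list, young leaf was called higher than root for 3 genes and lower for 11, against 15.5% and 16.6% of all probe sets tested. Shoot was higher than root for 3 and lower for 7, against 15.5% and 13.5%. Shoot was higher than young leaf for 7 and lower for 5, against 16.5% and 15%. NIP2-1 of the same list stood at 0.590 at 8 days and is no member.

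**Figure D3:**
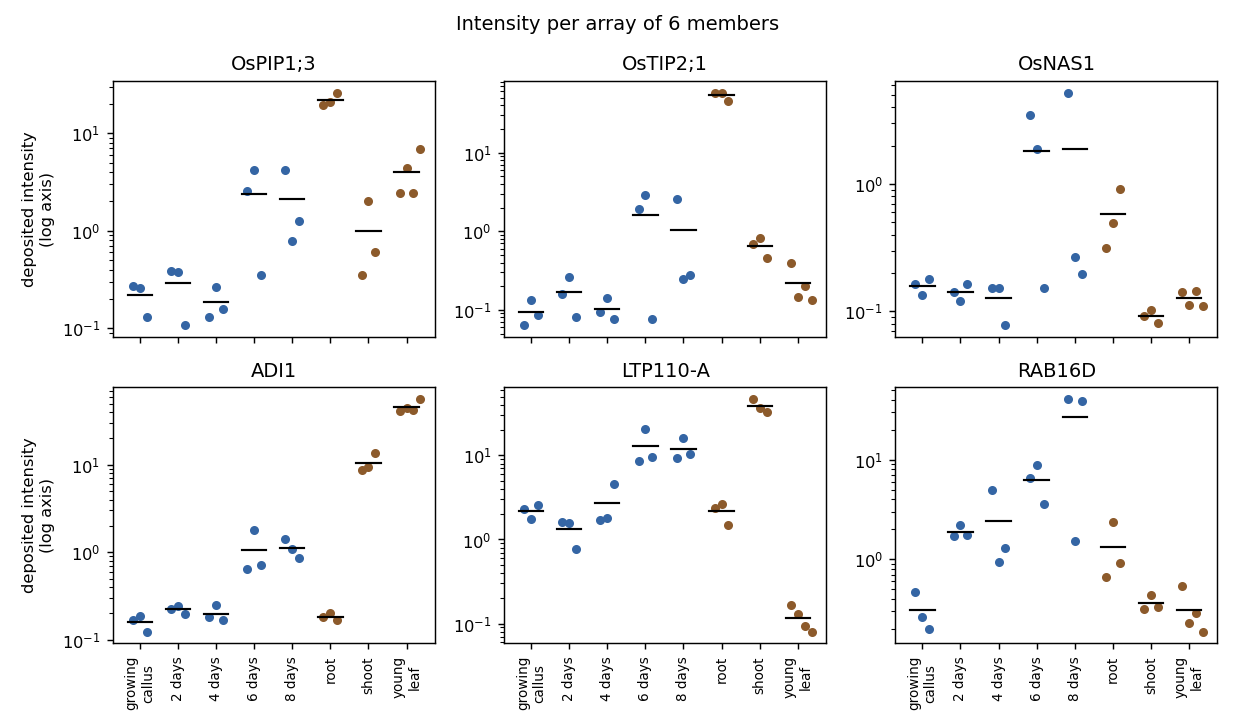
Deposited intensity of 6 members in every array, on log axes, with callus groups in blue, organs in brown and a bar at each group mean. OsPIP1;3, OsTIP2;1 and OsNAS1 have a 6 day array among or near the earlier callus arrays, ADI1 and LTP110-A have all 6 day arrays above the earlier ones, and RAB16D has 1 low array at 8 days.

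Several genes of the root class known only by locus number had the same low and high callus arrays as the aquaporins. LOC4343812, LOC4343813, LOC4343814 and LOC4343817 lie within 5 consecutive genes of chromosome 7, and in each of them root was the highest organ. For LOC4343813 the arrays read 2.1, 2.16 and 0.208 at 6 days, 3.51, 0.383 and 0.936 at 8 days, and 11.6, 8.77 and 6.64 in root, and the earlier callus arrays stayed between 0.182 and 0.299. The other 3 genes had the same low array at 6 days and the same high array at 8 days. In LOC4349330 and LOC4349331, immediate neighbours on chromosome 10, 6 day replicate 2 stood out on the high side, with LOC4349331 at 3.04, 5.86 and 1.16. That array was above the mean of the other 6 day arrays for 31 of the 34 root class members. The largest root over leaf differences among members were in a probe set with no gene assigned, number 17 by score (young leaf minus root -8.41, SE 0.609, limma adjusted p = 2.27e-11) and in LOC4330226 (-8.35, SE 0.895, adjusted p = 2.07e-08). LOC4330226 stood at 43.0 in root and 14.9 in shoot. Its shoot minus root difference (-1.47, SE 0.956, limma adjusted p = 0.197) was not called, which kept it out of the root class. With the organ arrays alone in the fit it was called. LOC4329797 had widely spread root arrays, at 5.68, 23.8 and 2.53, yet these did not overlap its shoot arrays (0.0891 to 0.223), and its shoot minus root difference was -5.34 (SE 0.505, adjusted p = 4.52e-09).

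In the young leaf class the level in callus was a small fraction of that in the leaf. The class median of the group means was 0.181 in growing callus, 0.926 at 6 days and 1.26 at 8 days, and 46.3 in young leaf, 4.76 in shoot and 0.266 in root. Its named genes serve the chloroplast and photorespiration: ADI1, a ferredoxin that takes electrons from photosystem I, RCABP69, a chlorophyll a/b binding protein, OsrcaA1, the Rubisco activase, ALDP, a plastid aldolase, GDCSH, the H protein of glycine cleavage, CAT-A, a catalase, and OsCRSH2, a plastid enzyme of the guanosine tetraphosphate signal. ADI1 read 0.638, 1.80 and 0.710 at 6 days and 1.42, 1.09 and 0.850 at 8 days, above all earlier arrays (0.123 to 0.248), and 40.8 to 56.4 in young leaf. Its young leaf minus root difference was 7.99 (SE 0.246, limma adjusted p = 3.24e-18) on the log2 scale. The late arrays all cleared the earlier callus, and none reached the lowest shoot array, 8.76.

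RCABP69 came to 0.532 ± 0.164 at 8 days (SD, n = 3) and 62.1 ± 15.5 in young leaf (SD, n = 4), or 0.857% of the leaf level, the lowest share of any member. GDCSH read 0.607, 0.620 and 0.649 at 6 days and 1.01, 0.757 and 1.21 at 8 days, where the leaf stood at 26.6. ALDP stood at 1.27 at 6 days and 2.48 at 8 days in its stronger probe set, and the probe sets of OsrcaA1 reached 0.705 and 0.756 at 8 days. CAT-A differed from these in root: its level there, 2.56, was close to the 2.44 and 3.26 of 6 and 8 day callus, and shoot was not called apart from root (log2 0.31, SE 0.556, limma adjusted p = 0.657). OsCRSH2 stood at 0.193 in shoot and 0.451 in root. After quantile normalization that log2 difference was -0.72 (SE 0.230) and was not called, while without the normalization it was called at -1.12. The gene reached 0.581 at 8 days and 2.93 in young leaf.

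The number of photosynthesis genes among the members is partly set by the rule. In all, 4 probe sets of the excluded genes had scores in the range of members, and excluded genes were not taken out of the numbers tested. Of the genes tested, 4 of 9 in carbon fixation and photorespiration, 1 of 5 in photosystems and light harvesting, 1 of 2 electron carriers and 0 of 8 in chlorophyll synthesis are members, after the exclusion of OsrbcS, CAB2R and PETE by the rule. In the leaf against root comparison 8 of the 9, 5 of the 5, 2 of the 2 and 8 of the 8 were called higher in young leaf. The glycolate oxidase gene GLO3, 1 gene, was called lower. Of all probe sets tested, 15.5% were called higher and 16.6% lower. GSA of the chlorophyll list, which makes an early precursor of the pigment, stood at 3.54 in growing callus and 3.27 at 8 days, with a score of -0.11.

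Members known by a locus number alone had the largest leaf differences. LOC4344899 (young leaf minus root 9.54, SE 0.242, limma adjusted p = 1.34e-19), LOC4325791 (9.52, SE 0.268) and LOC4331509 (9.52, SE 0.281) stood at 198, 90.3 and 139 in young leaf. LOC4325791 and LOC4331509 were low in shoot, at 0.939 and 1.16, with shoot minus young leaf at -6.53 (SE 0.268, adjusted p = 9.35e-16) and -6.86 (SE 0.281, adjusted p = 9.08e-16). For LOC4331509 the 8 day arrays, 5.61, 2.08 and 5.6, lay above all 3 shoot arrays (0.853 to 1.57). LOC4332805, by contrast, was 15.4 in shoot and 56.5 in leaf and gave the largest shoot over root difference of all members, 7.42 (SE 0.284, adjusted p = 9.26e-16), with LOC4336028 (7.36) and LOC4340259 (7.28) next. A probe set with no gene assigned, number 83 by score, followed among the differences with shoot below leaf, at -5.15 (SE 0.370, adjusted p = 2.15e-11). LOC4345663, on chromosome 8 and number 6 by score in its strongest probe set, read 1.36, 2.53 and 0.749 at 6 days and 2.40, 1.44 and 1.22 at 8 days, after 0.0664 to 0.158 before. It stood at 13.1 in shoot, 93.3 in young leaf and 0.207 in root.

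The shoot class came nearest to its organ level in callus. Its median group mean was 1.70 at 6 days and 1.98 at 8 days, against 4.63 in shoot, 0.5 in root and 0.232 in young leaf. LTP110-A, a lipid transfer protein, was already at 2.20 in growing callus, read 8.46, 20.3 and 9.5 at 6 days and 9.19, 16.3 and 10.3 at 8 days, and stood at 46.8, 36.3 and 32.8 in shoot, while the leaf arrays were at 0.0801 to 0.168. Its shoot minus young leaf difference, 8.38 (SE 0.343, limma adjusted p = 9.22e-16), was the largest of all members. LOC4330177 (7.31) and LOC4340259 (7.29, SE 0.462, adjusted p = 2.21e-12) followed. LOC4330177 was also abundant in root (21.5) and so outside the class, while LOC4340259 belonged to it, at 13.4 ± 3.47 at 8 days and 28.1 ± 12.1 in shoot (SD, n = 3) with root and leaf at 0.222 and 0.178. Radc1 was 4.68 at 6 days, 4.73 at 8 days, 27.3 in shoot, 1.31 in root and 0.243 in leaf.

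Regulatory genes of the shoot class were less abundant. LBD6, a LOB-domain transcription factor, read 0.664, 0.709 and 1.09 at 6 days and 0.757, 0.705 and 1.62 at 8 days, above all earlier arrays (0.181 to 0.325), and 1.55, 1.57 and 1.61 in shoot, with a shoot minus root difference of 2.70 (SE 0.243, limma adjusted p = 1.96e-09). BHLH004, a basic helix-loop-helix factor, was at 0.902 ± 0.0252 at 8 days and 1.37 ± 0.154 in shoot (SD, n = 3) and lower in root and leaf (0.273 and 0.222). GRXC15, a CC-type glutaredoxin, came to 0.964 at 8 days and 1.65 in shoot. Its leaf arrays spread from 0.322 to 1.56 and overlapped those of shoot, and its shoot against leaf call (log2 1.28, SE 0.330, adjusted p = 0.00184) fell short of the fold threshold without young leaf replicate 3 (log2 0.94).

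OsMT-I-2b, a cysteine-rich metal-binding metallothionein, entered the shoot class with 3 probe sets. One of them read 2.74, 1.96 and 1.32 at 6 days and 7.62, 2.37 and 3.36 at 8 days, and its earlier callus arrays were at 0.0437 to 0.269. In the organs it was among the most abundant members, at 151 ± 42.6 in shoot and 57.1 ± 10.7 in root (SD, n = 3) and 69.7 ± 5.75 in young leaf (SD, n = 4). Late callus thus held only a small part of any organ's level. It is the 1 member of 7 metallothionein genes tested. MT2C, also a metallothionein gene, had no such step: its strongest probe set was at 172 in growing callus and 190 at 8 days.

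A run of neighbours on chromosome 10 was among the highest scores. LOC4348119, LOC4348120, LOC4348121, LOC4348122 and LOC4348123 are consecutive in the RefSeq gene order and all 5 are members, with 7 probe sets. LOC4348123 read 0.900, 3.67 and 3.25 at 6 days and 1.93, 2.35 and 3.37 at 8 days, after 0.0902 to 0.175 in all earlier arrays. LOC4348120 read 1.14, 4.38 and 2.68 and then 2.24, 2.68 and 2.66, after 0.159 to 0.269. Its member probe set ends in _x_at and can detect related transcripts. In each of these genes 6 day replicate 1 was the lowest of its group, and no late array of them came down to the earlier level. The probe set number 1 by score, at 4.50, has no gene assigned and read 1.14, 7.40 and 3.72 at 6 days in the same order.

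In shoot the run split by array. LOC4348122 read 3.21, 0.145 and 0.145 there and LOC4348121 read 6.42, 0.212 and 0.194, and replicate 1 lay above every root array for 7 of the 7 probe sets, replicate 2 for 2 and replicate 3 for 4. LOC4348119 departed from the others with 1.06, 0.127 and 2.25. The shoot over root calls of LOC4348123 (log2 1.78, SE 0.665, limma adjusted p = 0.0253) and LOC4348122 (2.05, SE 0.691, adjusted p = 0.0141) were lost without shoot replicate 1, with log2 differences of 0.42 and 0.64. LOC4348121 had no call over root, and its call over young leaf (2.12, SE 0.721, adjusted p = 0.0148) was lost at 0.51. The shoot over root calls of LOC4348119 (1.64) and LOC4348120 (1.01) stayed past the threshold there, but that of LOC4348119 was lost without shoot replicate 3 (1.07). The call of LOC4348123 was also lost without root replicate 1 (1.76) or 3 (1.74), with the organ arrays alone in the fit (1.78) and without quantile normalization (1.39). What set shoot replicate 1 apart was not tested.

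Among members with no leading organ, the nicotianamine synthase genes OsNAS1 and OsNAS2, neighbours on chromosome 3, had late callus means above every organ mean, but these rest on part of the arrays. OsNAS1 read 3.45, 1.87 and 0.154 at 6 days and 5.19, 0.267 and 0.197 at 8 days, where root read 0.314, 0.493 and 0.919 and shoot and leaf reached at most 0.143. OsNAS2 read 3.20, 2.04 and 0.265 and then 3.78, 0.413 and 0.367. Both were thus high in 3 of the 6 late arrays and near the earlier callus level in the rest, where OsNAS1 lay below every root array. Without replicate 1 the 8 day mean of OsNAS1 was 0.232, under its root mean of 0.575, and that of OsNAS2 was 0.39, beside 0.350 in root. Neither had a call between organs, although the OsNAS1 differences from root, -1.73 for young leaf (SE 0.799, limma adjusted p = 0.0662) and -1.90 for shoot (SE 0.854, adjusted p = 0.0609), passed when the organ arrays were fitted alone. OsNAS3, the other family member tested, was at 21.7 in growing callus and 19.2 at 8 days and showed no late step.

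RAB16C and RAB16D, dehydrin genes next to each other on chromosome 11, had a different low array. RAB16D read 6.52, 8.86 and 3.62 at 6 days and 40.8, 1.52 and 39.2 at 8 days, and RAB16C 2.54, 2.99 and 1.36 and then 27.9, 0.679 and 29.0. In earlier callus 4 day replicate 1 was the highest array (4.98 and 5.49). Below it lay 8 day replicate 2 of both genes, 6 day replicate 3 of RAB16D and all 3 of the 6 day arrays of RAB16C. RAB16D was called lower in young leaf than in root (-1.90, SE 0.781, limma adjusted p = 0.0397), a call lost in 7 alternatives, among them the fit without root replicate 2 (-1.33). RAB16B and RAB21, which adjoin them in the same order of loci, were abundant from the start: RAB16B stood at 19.1 in growing callus and 97.3 at 8 days, and RAB21 at 38.3 and 170 in its stronger probe set. Of 8 late embryogenesis and dehydrin genes tested, only these 2 are members, and the organ means of the 4 RAB genes were at most 2.22.

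LOC4343033 and LOC4343034, neighbours on chromosome 7, combined both low arrays. LOC4343034 read 9.87, 9.80 and 0.128 at 6 days and 24.5, 0.630 and 22.7 at 8 days in its strongest probe set, and LOC4343033 read 4.30, 3.77 and 0.212 and then 14.7, 0.310 and 10.5. In both genes 6 day replicate 3 and 8 day replicate 2 lay within the range of earlier callus, and the other 4 late arrays lay far above it. Both of these probe sets end in _s_at and can detect related transcripts, so the readings of the neighbours may not be separate. In organs they were modest, LOC4343034 at 1.5 in shoot, 1.04 in root and 0.134 in leaf.

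Other named genes stood at lower and steadier levels. OsEXPB8, a beta-expansin that loosens cell walls, read 3.01, 3.0 and 3.75 at 6 days and 4.47, 4.00 and 5.16 at 8 days, above all earlier callus (0.426 to 1.42) and above every organ array (0.148 to 0.668). It is the 1 member of 25 expansin genes tested, of which 17 were lower in young leaf than in root and 18 higher in shoot than in young leaf, where 16.6% and 16.5% of all probe sets tested were called so. Shoot was higher than root for 10 of the 25 and lower for 5, against 15.5% and 13.5% of all probe sets tested. GIF1, a cell-wall invertase that splits sucrose, reached 0.677 ± 0.207 at 8 days, and stood at 1.15 in root and 1.44 in shoot. PLA2-III, a secreted phospholipase, reached 3.59 ± 0.511 (both SD, n = 3), with shoot at 3.25 and root at 5.19. Both were called lower in young leaf, by -2.93 (SE 0.226, limma adjusted p = 7.20e-11) and -4.85 (SE 0.232, adjusted p = 9.98e-15) against root.

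LOGL7, of the family that releases active cytokinin, went from 0.298 at 4 days to 0.878 at 6 days and 1.19 at 8 days, and its organ levels were 1.13 in root, 1.94 in shoot and 1.0 in leaf, with no call. Its shoot minus young leaf difference of 0.97 (log2) passed 2-fold and was called without shoot replicate 3 (1.05) or young leaf replicate 2 (1.03). OsPP2C30, a protein phosphatase of type 2C, reached 3.29 ± 1.86 at 8 days (SD, n = 3), again with replicate 2 lowest at 1.14, and was highest in young leaf, 11.2. GRXC10, a CC-type glutaredoxin, was one of 5 members with every organ mean below 0.274: it read 0.432, 0.454 and 0.562 at 6 days and 0.909, 0.695 and 1.08 at 8 days, and 0.25 in root, 0.218 in shoot and 0.139 in leaf.

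A few members stood far higher in late callus than in any organ. The probe set number 3 by score, with no gene assigned, read 9.28, 7.72 and 12.5 at 6 days and 34.9, 31.0 and 28.3 at 8 days, with 0.180 to 1.05 before and 0.270 to 1.08 in all 10 organ arrays. LOC4339527 showed nearly the same contrast, 52.5 ± 25.4 at 8 days (SD, n = 3) and at most 1.19 in an organ array. Its close neighbour LOC4339526 on chromosome 5 was the reverse, at 2.34 at 8 days, 56.9 in root, 37.9 in shoot and 0.904 in leaf. LOC4345656 stood at 15.5 ± 3.62 at 8 days against 1.2 to 1.89 in organs, where no comparison was called. The probe set number 197 by score, also unassigned and chosen here after its values were seen, read 49.0, 37 and 0.125 at 6 days, 48.3, 6.58 and 20.5 at 8 days, and up to 25.3 in an earlier array, so its late and early arrays overlapped.

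Set beside the organs, late callus held a modest share of most of these transcripts. The 8 day mean as a percentage of the highest organ mean had a median of 27.6% over members and quartiles of 7.24% and 84.0%, and it was under 10% for 58. It was above every organ for 45 members, above root for 123, above shoot for 78 and above young leaf for 134. By class the median share was 3.19% in the young leaf class, 12.3% in the root class and 53.2% in the shoot class, and the 20 members without an organ call stood at 343%. The classes are made from organ levels and the share is divided by them, so this order is partly built in. The absolute 8 day medians were close to each other: 1.26, 1.46 and 1.98 for the leaf, root and shoot classes and 2.03 for members with no call.

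**Figure D4:**
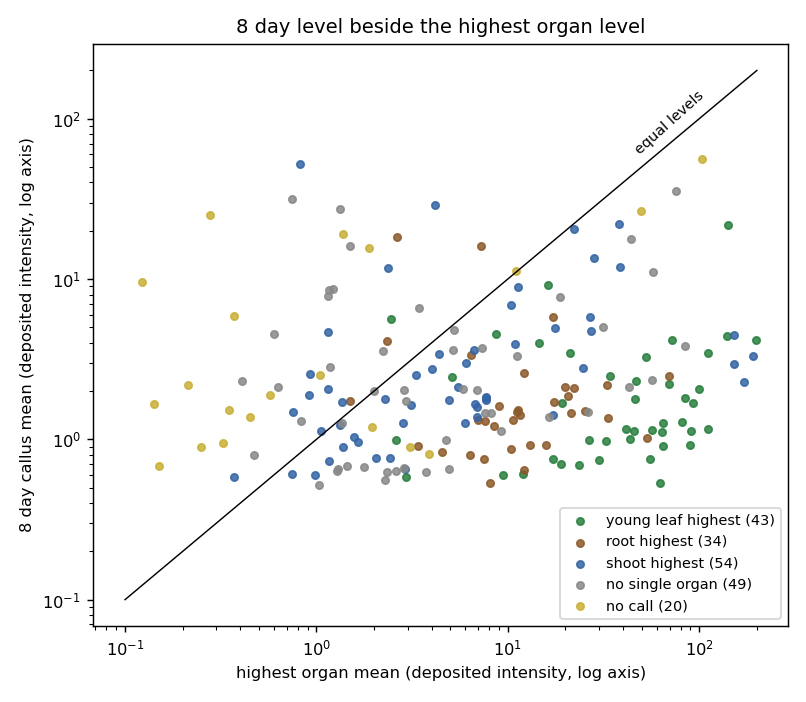
Each point is 1 member, with its highest organ mean on the horizontal axis and its 8 day callus mean on the vertical axis (deposited intensity, log axes), coloured by organ class, and the line marks equal levels. Points of the young leaf class lie far below the line, those of the shoot class come nearer to it, and most members without an organ call lie above it.

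The replicates at 6 and 8 days differed by class. In the root class the median log2 range between the 3 arrays was 2.18 at 6 days and 1.93 at 8 days, and 18 and 17 of its 34 members spread at least 4-fold. In the young leaf class the ranges were 1.12 and 0.85, with 1 and 3 of 43 spread so far, and in the shoot class 0.92 and 0.84, with 6 and 1 of 54. The root class sat low in 6 day replicate 3 (a median of -1.86 on the log2 scale from the mean of the other arrays of its group) and in 8 day replicate 2 (-1.27), and high in 6 day replicate 2 (1.3) and 8 day replicate 1 (1.17). All probe sets tested had medians between -0.08 and 0.05 in the same arrays. In 6 day replicate 3, 15 of the 34 root class members were no higher than their highest earlier array, compared with 3 of 43 in the leaf class, 4 of 54 in the shoot class, 12 of 49 with no single leading organ and 7 of 20 with no call.

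The median correlation of deviations from group means between pairs of members, over the 6 late arrays, was 0.71 in the leaf class, 0.60 in the root class and 0.23 in the shoot class. This is a description, since all members share the same 6 arrays, and the correlation between classes was not computed. Leaf class members were high in 6 day replicate 2 (0.85) and 8 day replicate 1 (0.55), as root class members were, and 6 day replicate 3 was at -0.46 for them. Counts for the root class depend on these arrays: its 8 day mean was above its 6 day mean for 23 of 34 members, for 10 without 8 day replicate 1 and for 13 without 6 day replicate 3, and its median share of the highest organ was 7.82% without 8 day replicate 1.

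**Figure D5:**
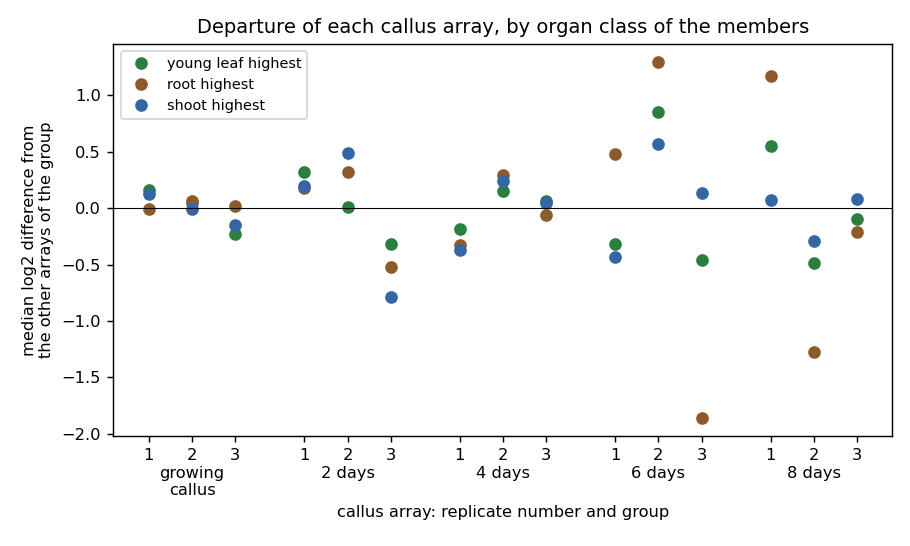
For each of the 15 callus arrays, the median log2 difference of class members from the mean of the other arrays of the group is shown by organ class. The root class departs most, at -1.86 in 6 day replicate 3 and 1.3 in 6 day replicate 2, while arrays of growing callus, 2 and 4 days stay within 1 of 0.

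The share of measured genes that are members is given by chromosome as a description, and whether it departs from an even placement was not tested. Neighbouring members weigh on it: chromosome 10 holds the run of 5 and a pair, and chromosome 7 a group of 4 and a pair. Chromosomes 7, 10 and 11 carried 20 of 1284, 13 of 821 and 10 of 770 measured genes, or 1.56%, 1.58% and 1.3%, and the other nuclear chromosomes 0.447% to 0.862%. In the RefSeq gene order, 25 member genes formed 10 groups in which each lies within 3 positions of the next. Immediate neighbours alone made up 6 of the groups. How many such groups a like number of other measured genes would form was not computed, so the count is no evidence of clustering. Besides those above, LOC4331532 and LOC4331533 on chromosome 3 were a matched pair of the shoot class, at 4.93 and 3.93 at 8 days and 17.6 and 10.8 in shoot. LOC4336028 and LOC4336033 on chromosome 4 were unlike: the former was at 84.2 in leaf, 42.4 in shoot and 0.349 in root, while the latter was higher at 8 days (5.64) than in any organ, the leaf included (2.46). LOC4340704 and LOC4340708 on chromosome 6 differed too, with 41.3 in leaf for the former and 2.29 in shoot for the latter as their highest organ levels.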

How the data were processed

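The values are those deposited by the authors: 1 linear intensity per probe set and array, scaled so that the 75th percentile of each array is 1. The submitters' processing notes name the software GCOS 1.3; background, summary and detection steps are not given in the sources used here. The members and gene lists were chosen with earlier results of these data known.

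The 187 control probe sets were left out. Before log2, 0.0274 was added to each value, which is 10% of the overall median. Because array medians ran from 0.220 to 0.355, log2 values were quantile normalized for tests, while printed levels are as deposited. The 37212 probe sets that exceeded their array's median on 3 or more arrays were fitted with limma 3.58.1 in R 4.3.3, with a mean per group over all 25 arrays (17 residual and 5.40 prior degrees of freedom) and Benjamini-Hochberg adjustment over all of them. A call needs an adjusted p under 0.05 and a 2-fold difference. The replicates are labelled biological without naming plants, so p-values measure only the spread between these arrays.

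Genes were named through the platform annotation and RefSeq symbols and synonyms (assembly ASM3414082v1), by this rule: all named members, the 10 highest scores, the 3 largest called differences in each direction of each organ comparison with arrays not overlapping, members at the thresholds, and neighbouring members. A list's calls use 1 probe set per gene, the one highest over the organs. Protein and promoter sequences were not analysed here. Replicate numbers did not pair the organ arrays.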

Additional observations from a re-analysis of the deposited data

Results flagged for a closer look

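In young leaf, the group with 4 arrays, 76 member probe sets named in the text were examined for a single array far from the rest, and 7 were marked; chance marks about 1 in 20. In 4 of them replicate 1 was lowest: OsTIP1;1 in 1 probe set at 13.4 against 21.3 to 23.0, ALDP in 1 probe set at 28.3 against 35.4 to 36.6, GDCSH at 20.1 against 28.0 to 29.4, and OsrcaA1 in 1 probe set at 15 against 19.8 to 20.9. LOC4329797 was highest in replicate 1, at 0.167 against 0.125 to 0.127. Replicate 4 was lowest for OsCRSH2, at 2.44 against 3.05 to 3.14, and for LOC4343817, at 0.0776 against 0.132 to 0.144. LOC4329797 and LOC4343817 lie under the median of all values there, and the others stay well above their root levels except OsTIP1;1.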

How the results depend on the processing

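Organ counts kept within 1.5 times of those reported under another pseudocount, scaling, filter, fit or threshold, with 1 exception. With 1 probe set per gene the shoot class came to 35 of 144 genes, beside 54 of 200 probe sets. The total is smaller there too, so the lower count is not a like change of share. Leaving out single organ arrays gave 49 to 50 and 83 to 86 members for young leaf above and below root, 82 to 92 and 37 to 46 for shoot against root, and 99 to 109 and 51 to 54 for shoot against young leaf. Of 3621 recomputed organ differences of named genes, 52 lost a call and 28 gained one. Among differences called in either fit, 0 changed sign. Differences called in neither fit were not counted in this and could change sign. Shoot minus root of LOC4348121 went from 1.59 to -0.02 on the log2 scale without shoot replicate 1. With the replicate number as a block, the counts were 49, 82, 87, 43, 107 and 53 in that order; the numbers did not pair the organ arrays, since deviations of same-numbered arrays correlated at -0.22 to 0.13 and of others at -0.20 to 0.24.

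Membership is less stable: 91 of the 200 were chosen in all 21 alternatives, 179 with a pseudocount of 50% of the median, 160 with group medians, 149 with an 8 day minimum of 1, 184 without the arrays with excess poly(A) controls, and 166 to 195 without 1 callus array. Leaving out single 6 or 8 day arrays, a choice made after the data were seen, gave 10 to 33 root class members with an 8 day mean above the 6 day mean (13 without 6 day replicate 3) and a root class share of 7.82% to 14.1%. Detection calls were not used, so levels under the median of all values have no firm order.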
